A study of Oryza sativa with 5 samples.

Results

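The roots of 2 kinds of transgenic rice (Oryza sativa, cultivar Nipponbare) were compared directly with each other. In RCc3::OsNAC6 plants the transcription factor gene OsNAC6 is driven by the RCc3 promoter, which is active in roots, and in GOS2::OsNAC6 plants it is driven by GOS2, a promoter active in the whole plant. These are 2 of the 5 samples of the study, chosen by their labels, with 1 library in each. Of 40342 transcripts listed for either library, 31380 transcripts of 25608 loci had a mean of at least 1 CPM (normalised count scaled to a common library sum) over both and were compared. The other 3 libraries were nontransgenic (NT) Nipponbare, NT of the cultivar Hwayoung, and nac6, labelled as an OsNAC6 knockout in Hwayoung. All plants were grown for 2 weeks under normal conditions, on MS medium at first and then in pots of soil. By their labels, both transgenic genotypes carry the OsNAC6 transgene on top of the native gene. Several homozygous lines exist for each construct, and how many lines or plants gave the RNA was not stated. The comparison asks where the root-specific and the constitutive construct differ in the root itself, without the NT (Nipponbare) library that both share as a control elsewhere in the study.

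OsNAC6 belongs to the NAC family, plant-specific transcription factors with many members that respond to drought and abscisic acid. Grasses take up iron by releasing phytosiderophores, chelators made from nicotianamine, and re-importing the iron complex through yellow stripe transporters. Roots that run short of oxygen switch from respiration to fermentation of pyruvate to ethanol or lactate and make non-symbiotic hemoglobins. Late embryogenesis abundant (LEA) proteins and dehydrins protect cells that lose water, and protein phosphatases 2C act in the abscisic acid pathway.

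Levels are given in CPM, which is the deposited normalised count scaled so that each library sums to 1000000. They are not divided by transcript length, so levels of different genes are not compared. A log2 ratio is log2((RCc3::OsNAC6 + 1)/(GOS2::OsNAC6 + 1)) on that scale, positive where the level was higher in RCc3::OsNAC6, and it understates the difference of low transcripts. The error given with a ratio is a standard error from the recovered reads and covers counting error only. Each group had 1 library as listed, so the differences were not checked by replicates and no test was made. A transcript was called at a difference of 2-fold on the log2 ratio. The reads recovered per library numbered between 22909719 in nac6 and 26838552 in NT (Nipponbare), with 25930687 in RCc3::OsNAC6 and 23932562 in GOS2::OsNAC6.

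OsNAC6 itself (Os01t0884300-01, chromosome 1) did not separate the libraries as their labels would. Its level was 233 CPM for RCc3::OsNAC6 as labelled and 279 for GOS2::OsNAC6. NT (Nipponbare) had 231, NT (Hwayoung) 323, and the knockout as labelled 359, the highest of the 5. The log2 ratio was -0.25 ± 0.04, so OsNAC6 was slightly higher in the library labelled GOS2::OsNAC6, and that labelled RCc3::OsNAC6 lay at the level of NT (Nipponbare). Since the level of OsNAC6 went against the label of nac6, and RCc3::OsNAC6 did not exceed its NT, each group name here means the library labelled so. OsNAS1 and OsNAS2, nicotianamine synthase genes that the study lists as targets, were ordered the way the labels would have them. The study chose its targets by binding data and by at least 2-fold differences in this direction in these same libraries. The order was thus set by that choice and is no check of the labels. OsNAS1 had 813 CPM in RCc3::OsNAC6 and 955 in GOS2::OsNAC6 against 212 in NT (Nipponbare), and 5.94 in nac6 against 43.9 in NT (Hwayoung). By RNA blot of older plants, the study reports high OsNAC6 levels in roots of both kinds of transgenic plant. It also measured OsNAC6 by quantitative PCR in roots of plants of 2 weeks, the age of these libraries. To that expression it ascribes the opposite root phenotypes of nac6 and the overexpressors, which the levels here do not mirror. Its blot and PCR measurements of OsNAC6 were not analysed here. The native gene RCc3 (Os02t0662000-01) had 960 CPM in RCc3::OsNAC6 and 1151 in GOS2::OsNAC6, a log2 ratio of -0.26 ± 0.02. The native gene GOS2 (Os07t0529800-01) had 361 and 572 CPM, a log2 ratio of -0.66 ± 0.03. The ubiquitin domain gene Os06t0681400-01, a reference gene, had 1874 and 1449 CPM, a log2 ratio of 0.37 ± 0.01.

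Of the 31380 transcripts, 1083 (3.45%) were at least 2-fold higher in RCc3::OsNAC6 and 961 (3.06%) were at least 2-fold higher in GOS2::OsNAC6. The median log2 ratio over all transcripts was 0.11, so gene lists are read against that value and not against 0. Counts of called members are read against the shares of 3.45% and 3.06%. Scaling by the median of ratios moved that median by -0.11 to 0.00 and turned the counts to 747 and 1306, so that the share of called transcripts that were higher in RCc3::OsNAC6 went from 53.0% to 36.4%. The calls in the direction of RCc3::OsNAC6 lay at lower levels. Among transcripts with a mean of 1 to 5 CPM, 4.65% were higher in RCc3::OsNAC6 and 2.55% in GOS2::OsNAC6, whereas at 100 CPM or more the shares were 1.02% and 3.43%. The 95% counting interval stayed beyond 2-fold for 342 of the 1083 and 460 of the 961.

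**Figure D1:**
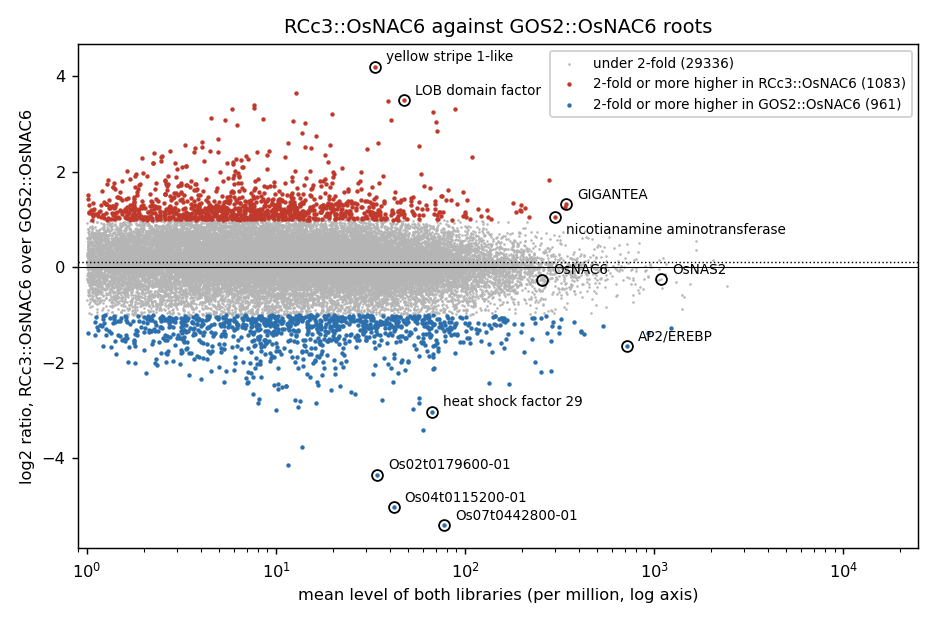
Log2 ratio of RCc3::OsNAC6 over GOS2::OsNAC6 (vertical axis) against the mean level of both libraries in CPM (log axis) for 31380 transcripts, with the 1083 called higher in RCc3::OsNAC6 in red, the 961 called higher in GOS2::OsNAC6 in blue, and the median of 0.11 dotted. The largest ratios are 4.20 for a yellow stripe 1-like transporter and -5.40 for Os07t0442800-01, and OsNAC6 lies near 0 at -0.25.

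The gene with the largest ratio in the direction of RCc3::OsNAC6 was an iron transporter. This locus is OsYSL2 by name, and whether it takes up iron with phytosiderophores was not tested. Os02t0649900-00, its transcript on chromosome 2, is annotated as similar to the iron-phytosiderophore transporter yellow stripe 1. Os02t0649900-00 had 64.3 CPM in RCc3::OsNAC6 against 2.55 in GOS2::OsNAC6. It had 0.515 in NT (Nipponbare), 0.797 in NT (Hwayoung) and 3.51 in nac6, so it was high in RCc3::OsNAC6 alone, with a log2 ratio of 4.20 ± 0.19. Os02t0650300-01, also on chromosome 2 and annotated as an iron-phytosiderophore transporter of iron homeostasis, had 185 CPM in RCc3::OsNAC6, 90.5 in GOS2::OsNAC6 and 41.4 in NT (Nipponbare). That gene was near absent from the Hwayoung libraries, with 2.49 in NT (Hwayoung) and 0.864 in nac6, and its log2 ratio was 1.02 ± 0.05.

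Most loci listed for iron uptake lay on the same side. The list holds 10 loci for phytosiderophore synthesis and metal uptake, of which 3 were called higher in RCc3::OsNAC6 and 0 higher in GOS2::OsNAC6, against 3.45% and 3.06% of all transcripts. Its median log2 ratio was 0.87, beside 0.11 over all transcripts, and 9 of the 10 lay above 0.11. A transcript similar to nicotianamine aminotransferase (Os02t0306401-00), an enzyme on the way from nicotianamine to phytosiderophores, had 402 CPM in RCc3::OsNAC6, 194 in GOS2::OsNAC6, 116 in NT (Nipponbare), 53.8 in NT (Hwayoung) and 9.51 in nac6. Its log2 ratio was 1.05 ± 0.04, and the 5 libraries stood in that order. The same order, from RCc3::OsNAC6 down to nac6, was seen for 2 major facilitator family members. Os11t0134900-01 had 257, 145, 63.7, 4.46 and 0.260 CPM (log2 ratio 0.82 ± 0.04), and Os11t0151500-01 had 24.0, 12.2, 6.86, 2.04 and 0.831 (0.92 ± 0.14).

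The metal transporters of the list lay under 2-fold. Os03t0667500-01 and Os03t0667300-00, which resemble metal transport proteins, had log2 ratios of 0.72 ± 0.05 and 0.98 ± 0.07. The first had 155 CPM in RCc3::OsNAC6 and 93.7 in GOS2::OsNAC6, and the second had 114 and 57.3. OsNramp1 (Os07t0258400-01), an integral membrane metal transporter, had 145 and 97.1 CPM, a log2 ratio of 0.57 ± 0.05. A second transcript similar to it (Os07t0257200-01) had 418 and 336, a ratio of 0.31 ± 0.03. A reductase-like transcript of the list (Os03t0237100-01) had 169 and 162 CPM, and its ratio of 0.06 ± 0.04 was the only one of the 10 below the overall median. Under the median-of-ratios scaling 1 of the 10 stayed past 2-fold, and the list median was 0.74 beside 0.00 over all transcripts. The loci of this list were picked by hand. A list by function text for iron and phytosiderophore transport held 6 transcripts of 4 loci, with 3 higher in RCc3::OsNAC6, 0 higher in GOS2::OsNAC6 and 2 below the overall median. The lower pair were isoforms of 1 gene annotated as yellow stripe 1, and Os04t0390500-02, the more abundant, had 46.1 CPM in RCc3::OsNAC6 and 72.5 in GOS2::OsNAC6, a log2 ratio of -0.64 ± 0.08.

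The genes that make nicotianamine did not follow the loci listed for iron uptake. OsNAS1 (Os03t0307300-01) had 813 CPM in RCc3::OsNAC6 and 955 in GOS2::OsNAC6, a log2 ratio of -0.23 ± 0.02. OsNAS2 (Os03t0307200-01) had 995 and 1181, a ratio of -0.25 ± 0.02, and OsNAS3 (Os07t0689600-01), the synthase gene on chromosome 7, had 128 and 172, a ratio of -0.42 ± 0.05. All 3 synthases were thus slightly higher in GOS2::OsNAC6, and none reached 2-fold. Both libraries stood well above NT (Nipponbare), which had 212, 292 and 19.3 CPM. OsNAS1 and OsNAS2 are close copies, and how reads shared between them were counted was not stated.

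Genes of the methionine cycle, which refills the precursor of nicotianamine, lay in both directions. A list of 10 loci held OsNAS1, OsNAS2 and OsNAS3 together with genes of this cycle, so its median of 0.38 is not that of the cycle alone. Of the 10, 1 was higher in RCc3::OsNAC6 and 0 in GOS2::OsNAC6, against 3.45% and 3.06% of all transcripts. OsIDI4 (Os09t0453800-01) had 150 and 178 CPM, a log2 ratio of -0.25, and OsIDI1-2 (Os03t0161800-01) had 97.4 and 50.5, a ratio of 0.93. The methylthioribose kinase Os04t0669800-01 had 223 CPM in RCc3::OsNAC6 and 157 in GOS2::OsNAC6 (log2 ratio 0.50 ± 0.04), and the IDI2-like Os11t0216900-02 had 42.3 and 32.8 (0.36 ± 0.09). The called member was Os10t0419400-01, similar to SIPL, with 10.3 and 1.51 CPM and a ratio of 2.17 ± 0.23. It differed from the rest of the list in the other libraries too, with 1.08 in NT (Nipponbare) but 76 in NT (Hwayoung) and 119 in nac6. A list for ferritins, which store iron, had 0 of 4 transcripts higher in RCc3::OsNAC6 and 1 higher in GOS2::OsNAC6, with a median of -0.51. The called one, Os01t0508100-01, is annotated only by a family shared with ribonucleotide reductase, and none of the 3 transcripts annotated as ferritin 1 was called. Metallothioneins, small metal-binding proteins, had 0 of 14 called in either direction and a median of -0.42, and 13 of the 14 lay below the overall median.

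**Figure D2:**
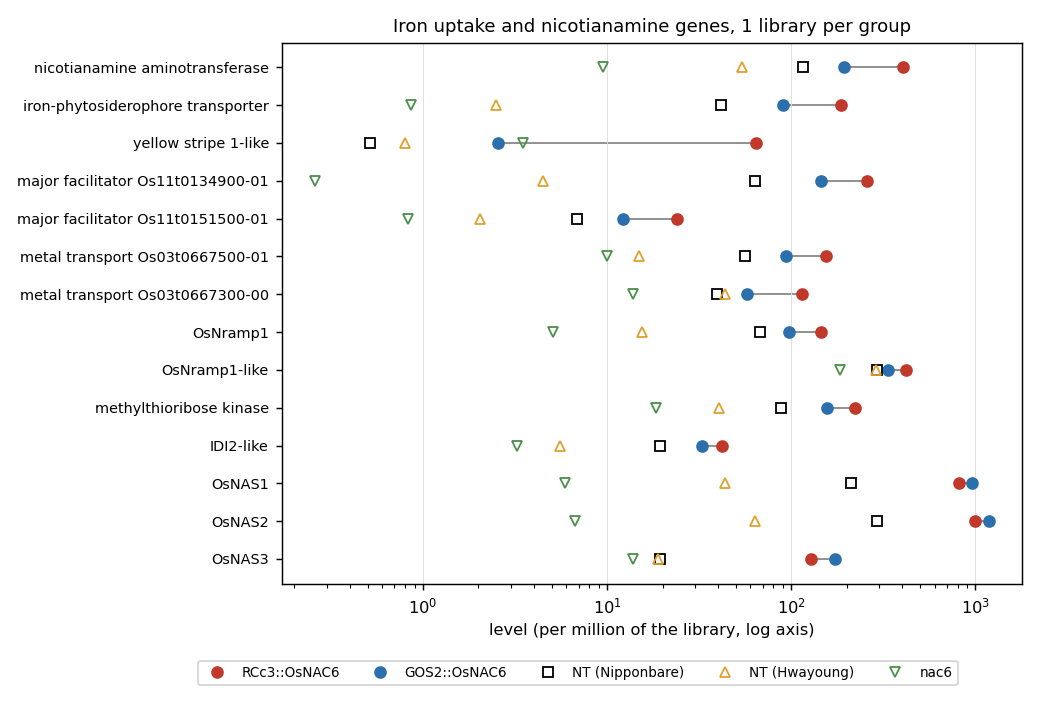
Levels in CPM (log axis) of 14 iron and nicotianamine transcripts in the 5 libraries, with a grey line between RCc3::OsNAC6 (red) and GOS2::OsNAC6 (blue). The genes drawn here from the list of phytosiderophore synthesis and metal uptake sit to the right in RCc3::OsNAC6. The shift is largest for the yellow stripe 1-like transcript (64.3 against 2.55). OsNAS1, OsNAS2 and OsNAS3 sit slightly to the right in GOS2::OsNAC6.

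Calls among genes of the low-oxygen response lay in the direction of RCc3::OsNAC6. Of 30 transcripts for fermentation enzymes, hemoglobins and hypoxia-induced proteins, 9 were called higher in RCc3::OsNAC6 and 0 higher in GOS2::OsNAC6, with a median of 0.43. Non-symbiotic hemoglobin 2 (Os03t0226200-01) had 19.2 CPM in RCc3::OsNAC6 and 3.04 in GOS2::OsNAC6, and hemoglobin 1 (Os03t0233900-01) had 9.30 and 2.39. Their log2 ratios were 2.32 ± 0.20 and 1.61 ± 0.22. Alcohol dehydrogenase 1 (Os11t0210300-01), the last step of ethanol fermentation, had 101 and 38.1 CPM, a ratio of 1.38 ± 0.08. Pyruvate decarboxylase, the step before it, had 7.27 and 1.30 for Os05t0469600-01 and 5.87 and 1.13 for Os05t0469800-00. An L-lactate dehydrogenase B-like transcript (Os06t0104900-01) had 4.91 and 1.01.

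These differences were small beside those between the Nipponbare and the Hwayoung libraries. With 1 library per group, whether cultivar or another difference between these libraries made that gap was not tested. Hemoglobin 2 had 1.43 CPM in NT (Nipponbare), 166 in NT (Hwayoung) and 133 in nac6. Pyruvate decarboxylase Os05t0469600-01 had 0.891 in NT (Nipponbare), 666 in NT (Hwayoung) and 815 in nac6. Summed over the 30 transcripts, the level was 1270 CPM in RCc3::OsNAC6, 823 in GOS2::OsNAC6, 729 in NT (Nipponbare), 7759 in NT (Hwayoung) and 10840 in nac6. In a first wording of the list that also took in zinc-type and allyl alcohol dehydrogenases, 10 of 72 transcripts were higher in RCc3::OsNAC6 and 3 were higher in GOS2::OsNAC6.

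Of the 12 loci with the largest ratios in the direction of RCc3::OsNAC6, 6 shared this profile, with both Hwayoung libraries at least 2-fold above NT (Nipponbare). Os12t0623600-01, with a DUF1637 domain of unknown function, had 125 CPM in RCc3::OsNAC6, 14.4 in GOS2::OsNAC6, 16.3 in NT (Nipponbare), 198 in NT (Hwayoung) and 105 in nac6. Its log2 ratio was 3.04 ± 0.11, and 2 more DUF1637 transcripts, chosen after their values were seen, had ratios of 2.51 (Os01t0185500-00) and 1.92 (Os05t0592300-01). A LOB domain protein 40-like factor (Os01t0511000-01) had 88.1 and 6.87 CPM in RCc3::OsNAC6 and GOS2::OsNAC6 and 351 and 237 in the Hwayoung libraries, with a ratio of 3.50 ± 0.15. A desaturase-like transcript (Os01t0880800-01), a wound-induced protein (Os04t0635500-01), a PEI1-like zinc finger factor (Os05t0525900-01) and a respiratory burst oxidase B-like transcript (Os12t0541300-01) had ratios of 3.66, 3.22, 3.07 and 2.82. All 4 had 3.01 CPM or less in GOS2::OsNAC6 and NT (Nipponbare), between 22.6 and 36.3 in RCc3::OsNAC6, and 86.1 or more in both Hwayoung libraries.

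**Figure D3:**
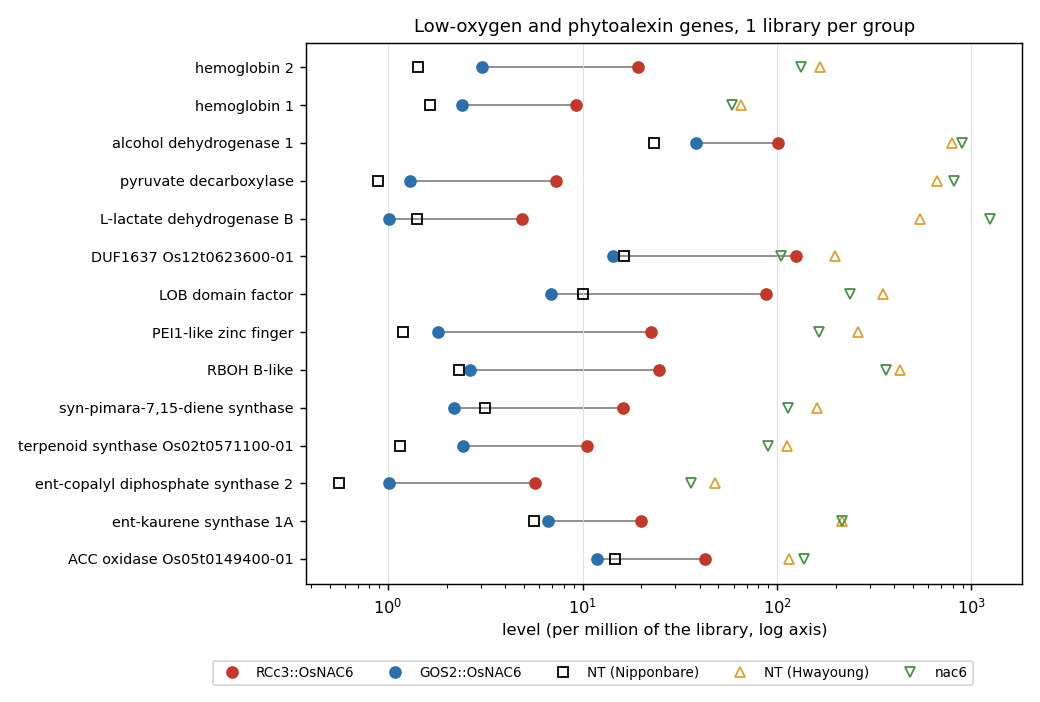
Levels in CPM (log axis) of 14 transcripts in the 5 libraries. They are of low-oxygen, phytoalexin and ethylene synthesis genes and of other genes among the largest ratios, and some were chosen after their values were seen. GOS2::OsNAC6 (blue) sits beside NT (Nipponbare), RCc3::OsNAC6 (red) sits to their right, and for 13 of the 14 both Hwayoung libraries lie further right still. The DUF1637 transcript is the exception, with 125 in RCc3::OsNAC6 and 105 in nac6.

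Across all called transcripts the same tilt could be counted. NT (Hwayoung) and nac6 were both at least 2-fold above NT (Nipponbare) for 4.60% of all transcripts compared, but for 216 of the 1083 that were higher in RCc3::OsNAC6 (19.9%) and for 38 of the 961 that were higher in GOS2::OsNAC6 (3.95%). Both were at least 2-fold below NT (Nipponbare) for 9.14% of all transcripts, for 76 of the 1083 (7.02%) and for 381 of the 961 (39.6%). These shares use none of the values that chose the transcripts. A set of 26 transcripts had at most 3 reads in both GOS2::OsNAC6 and NT (Nipponbare) and at least 10 CPM in both Hwayoung libraries. In RCc3::OsNAC6 they reached from 0 to 11.5% of the lower Hwayoung level, with a median of 1.52%. Of the 26, 6 had at most 3 reads in RCc3::OsNAC6, among them 2 with 0 reads, and the rest had more than 3. Low reads in GOS2::OsNAC6 were part of the choice of this set, and no set was made with the transgenic libraries swapped. The set was picked by level and not by sequence, so material of the other cultivar in the RCc3::OsNAC6 library was not tested.

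The NT (Nipponbare) library, which the comparison does not use, lay nearer GOS2::OsNAC6 than RCc3::OsNAC6 in both directions. It was nearer GOS2::OsNAC6 for 807 of the 1083 transcripts higher in RCc3::OsNAC6 (74.5%) and for 861 of the 961 higher in GOS2::OsNAC6 (89.6%), against 58.5% of all transcripts compared. For the first set the median level was 10.7 CPM in RCc3::OsNAC6, 3.57 in GOS2::OsNAC6 and 5.16 in NT (Nipponbare). For the second it was 6.55, 19.9 and 19.8. Of that second set, 384 (40.0%) were higher still in NT (Nipponbare) than in GOS2::OsNAC6.

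Diterpenoid phytoalexin genes, which make the antimicrobial momilactones and phytocassanes of rice, also included many calls. Of 21 transcripts, 8 (38.1%) were higher in RCc3::OsNAC6 and 3 (14.3%) were higher in GOS2::OsNAC6, against 3.45% and 3.06% of all transcripts. Ratios in the list reached down to -1.42. A transcript similar to syn-copalyl diphosphate synthase (Os04t0178300-02) was not called, with 53.4 CPM in RCc3::OsNAC6 and 40.9 in GOS2::OsNAC6, a log2 ratio of 0.38 ± 0.08. Syn-pimara-7,15-diene synthase (Os04t0179700-01) had 16.2 CPM in RCc3::OsNAC6, 2.17 in GOS2::OsNAC6, 3.16 in NT (Nipponbare), 160 in NT (Hwayoung) and 114 in nac6, a log2 ratio of 2.44 ± 0.22. On chromosome 2, 6 neighbouring loci were all called, from the ent-kaurene synthase 1A-like Os02t0570400-01 (1.46) through a cytochrome P450 (Os02t0570700-01, 1.08) and ent-copalyl diphosphate synthase 2 (Os02t0570900-00, 1.73) to a terpenoid synthase (Os02t0571100-01, 1.76). Of these, Os02t0570900-00 had 5.67 CPM in RCc3::OsNAC6 and 1.01 in GOS2::OsNAC6, and the other 2 loci of the run are annotated as hypothetical proteins.

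Such runs occurred in both directions. Summed over the transcripts of a locus, 3.79% of 25694 loci were higher in RCc3::OsNAC6 and 3.36% were higher in GOS2::OsNAC6. The next annotated locus with enough reads was called in the same direction for 145 of 973 loci (14.9%) and 152 of 864 (17.6%). There were 25 runs of 3 or more loci higher in RCc3::OsNAC6 and 15 runs higher in GOS2::OsNAC6. The longest held 8 loci on chromosome 4 around the wound-induced protein Os04g0635500, and on chromosome 6 a run of 4 early nodulin loci reached ratios between 2.02 and 3.31. In the other direction a run of 7 loci on chromosome 1 began at Os01g0627600 and held 4 cytochrome P450 loci. Many members of runs are hypothetical genes beside an annotated one, and since counting by strand was not stated, overlapping and antisense transcripts cannot be told apart. By chromosome, the share of transcripts higher in RCc3::OsNAC6 went from 2.96% on chromosome 3 to 4.91% on chromosome 12, and that of transcripts higher in GOS2::OsNAC6 from 2.49% on chromosome 12 to 4.02% on chromosome 10.

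Among ethylene synthesis genes, some ACC oxidases were higher in RCc3::OsNAC6. Of 18 transcripts for S-adenosylmethionine synthases and the enzymes of the ethylene precursor ACC, 3 were higher in RCc3::OsNAC6 and 0 were higher in GOS2::OsNAC6, although the list median of 0.06 lay below that of all transcripts. The called members were all ACC oxidases, which release ethylene. Os05t0149400-01 had 42.5 CPM in RCc3::OsNAC6, 11.8 in GOS2::OsNAC6, 14.7 in NT (Nipponbare), 115 in NT (Hwayoung) and 138 in nac6, a log2 ratio of 1.76 ± 0.13. Os05t0149300-00 and Os01t0580500-01 had ratios of 1.48 ± 0.21 and 1.55 ± 0.21. Another ACC oxidase, Os09t0451000-01, lay on the other side with 2.43 CPM in RCc3::OsNAC6 and 5.82 in GOS2::OsNAC6, a ratio of -0.99 ± 0.23, and under the median-of-ratios scaling 1 member of the list was called higher in GOS2::OsNAC6.

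Resistance genes of the NB-ARC type, intracellular immune receptors, were shifted as a group. Their list goes by function text and also took in Os11t0645400-01, annotated only as a disease resistance response protein and called higher in GOS2::OsNAC6. Of 290 transcripts, 31 (10.7%) were higher in RCc3::OsNAC6 and 4 (1.38%) in GOS2::OsNAC6, against 3.45% and 3.06% of all transcripts. The median was 0.36, and 199 of the 290 lay above the overall median. An NBS-LRR-like transcript (Os09t0311600-01) had 28.9 CPM in RCc3::OsNAC6 and 7.24 in GOS2::OsNAC6, a log2 ratio of 1.86 ± 0.15. Here the Hwayoung libraries did not share the direction, since 8 of the 290 were at least 2-fold above NT (Nipponbare) in both and 59 were at least 2-fold below it in both. Summed over the list, NT (Nipponbare) had 4012 CPM, close to the 3884 of RCc3::OsNAC6 and above the 3026 of GOS2::OsNAC6. Transposon-related transcripts had 7 of 69 higher in RCc3::OsNAC6 and 1 in GOS2::OsNAC6, with a median of 0.30.

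Markers of dividing cells were called no more often than other transcripts, but most lay above the overall median. Core histones had 1 of 48 (2.08%) higher in RCc3::OsNAC6 and 0 in the other direction. Their median was 0.38, and 32 of the 48 lay above the overall median. Cyclins had 0 of 50 called and a median of 0.37, with 38 of the 50 above the overall median. Over all transcripts 3.45% were called higher in RCc3::OsNAC6 and the median was 0.11. A first, wider wording of the cyclin list held 261 transcripts, with 6 higher in RCc3::OsNAC6, 4 higher in GOS2::OsNAC6 and a median of 0.10. A cyclin B (Os02t0800500-01) had 40.6 CPM in RCc3::OsNAC6 and 20.9 in GOS2::OsNAC6, just short of 2-fold on the log scale with a ratio of 0.92 ± 0.11. In bulk roots, a different share of a cell type and a different amount of RNA per cell cannot be told apart. Shoot tissue was checked through 18 transcripts of photosystems, chlorophyll a/b-binding proteins and ribulose bisphosphate carboxylase. Of these, 1 was called in each direction and the median was -0.30. The called member higher in RCc3::OsNAC6 was a ribulose bisphosphate carboxylase-like transcript (Os02t0152400-01), with 43.3 CPM against 15.8 in GOS2::OsNAC6 and 3.17 in NT (Nipponbare). The part of cell composition in any difference was not tested.

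The clock list held 6 of 13 transcripts higher in RCc3::OsNAC6 and 1 higher in GOS2::OsNAC6, against 3.45% and 3.06% of all transcripts. Those 13 transcripts come from 8 loci. The list was not shifted as a whole, with a median of 0.13 beside 0.11 over all transcripts, and 7 members above that value and 6 below. A first wording of the list held 6 transcripts, with 2 higher in RCc3::OsNAC6 and 0 higher in GOS2::OsNAC6. GIGANTEA (Os01t0182600-01), an evening gene of the plant clock, had 490 CPM in RCc3::OsNAC6, 195 in GOS2::OsNAC6, 222 in NT (Nipponbare), 258 in NT (Hwayoung) and 207 in nac6. Its log2 ratio was 1.32 ± 0.03, and RCc3::OsNAC6 stood above the other 4 libraries. The response regulators PRR73 (Os03t0284100-01) and PRR37 (Os07t0695100-02), further clock parts, had ratios of 1.50 ± 0.08 and 1.06 ± 0.25. An LHY-like transcript (Os04t0583900-01), related to a morning gene of the clock, went the other way, with 4.89 CPM in RCc3::OsNAC6 and 34.0 to 48.3 in the other 4 libraries, a ratio of -2.57 ± 0.17. When in the day each root sample was taken is not given in the sources used here.

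Some of the most abundant transcripts higher in RCc3::OsNAC6 came from varied processes. A cysteine synthase (Os04t0165700-01), which makes cysteine from sulfide, had 433 CPM in RCc3::OsNAC6, 121 in GOS2::OsNAC6 and between 85.6 and 116 in the other 3 libraries, a log2 ratio of 1.83 ± 0.04. The endosperm lumenal binding protein Os02t0115900-02, a chaperone of the endoplasmic reticulum, had 276 and 121 CPM (1.19 ± 0.04). An MtN3 family membrane protein (Os01t0881300-02) had 293 and 122 CPM, with 33.2 in NT (Nipponbare), and the nucleolar histone deacetylase HD2-p39-like Os05t0597100-01 had 258 and 115. A pair of DUF3778 transcripts had a patchy profile. Os07t0162450-01 had 126 CPM in RCc3::OsNAC6, 16.5 in GOS2::OsNAC6 and 117 in nac6 but 2.19 and 2.58 in the NT libraries, and Os01t0537250-01 had 72.8, 5.57 and 54.6 against 10.1 and 3.89.

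In the direction of GOS2::OsNAC6, the 3 largest ratios belonged to transcripts with low levels in RCc3::OsNAC6 and in both NT libraries. Os07t0442800-01, a conserved hypothetical protein on chromosome 7, had 152 CPM in GOS2::OsNAC6 and 2.62 in RCc3::OsNAC6, with a log2 ratio of -5.40 ± 0.18. It had 2.77 in NT (Nipponbare), 3.18 in NT (Hwayoung) and 179 in nac6. Os04t0115200-01, another conserved hypothetical protein, repeated that profile with 82.4 CPM in GOS2::OsNAC6, 116 in nac6 and between 1.57 and 2.00 in the other 3 libraries, a ratio of -5.02 ± 0.20. Os02t0179600-01, which holds a vWA domain, was high in GOS2::OsNAC6 alone, with 66.4 CPM there and between 0.170 and 2.32 elsewhere, a ratio of -4.34 ± 0.19. For all 3 GOS2::OsNAC6 stood far above both RCc3::OsNAC6 and NT (Nipponbare), and nac6 shared the high level for the first pair. A BURP domain protein (Os05t0217800-01) had 1.01 CPM in RCc3::OsNAC6, 26.4 in GOS2::OsNAC6 and 15.8 in NT (Nipponbare), a ratio of -3.77 ± 0.22.

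Water-stress proteins were the list furthest towards GOS2::OsNAC6. Of 20 LEA and dehydrin transcripts, 8 (40.0%) were higher in GOS2::OsNAC6 and 1 (5.00%) in RCc3::OsNAC6, against 3.06% and 3.45% of all transcripts. The list median was -0.72, and 19 of the 20 lay below the overall median. The LEA-like Os05t0542500-02 had 13.3 CPM in RCc3::OsNAC6, 101 in GOS2::OsNAC6 and 196 in NT (Nipponbare), a log2 ratio of -2.84 ± 0.11. Dehydrin RAB 16D (Os11t0453900-01) had 2.50, 18.0 and 57.4, a ratio of -2.44 ± 0.20, and an abundant dehydrin (Os02t0669100-01) had 322, 750 and 866, a ratio of -1.22 ± 0.03. For all 3 the order was RCc3::OsNAC6 below GOS2::OsNAC6 below NT (Nipponbare). Summed over the list, the level was 794 CPM in RCc3::OsNAC6, 1523 in GOS2::OsNAC6, 1803 in NT (Nipponbare), 887 in NT (Hwayoung) and 1315 in nac6.

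Protein phosphatases 2C, some of which hold the abscisic acid pathway off, had 9 of 66 transcripts (13.6%) higher in GOS2::OsNAC6 and 0 higher in RCc3::OsNAC6. The shares over all transcripts were 3.06% and 3.45%, and the list median was -0.15. Os01t0846300-01 had 33.6 CPM in RCc3::OsNAC6, 110 in GOS2::OsNAC6 and 93.8 in NT (Nipponbare), a log2 ratio of -1.69 ± 0.08. Os05t0457200-01 had 1.66, 12.2 and 13.1, a ratio of -2.31 ± 0.22. RCc3::OsNAC6 was here the low library among those of Nipponbare. A transcript similar to myo-inositol-1-phosphate synthase (Os03t0192700-01), the first step towards inositol, had 235, 518 and 544 CPM, a ratio of -1.14 ± 0.03.

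Of the transcription factor families, WRKY and NAC factors had the highest shares of calls in the direction of GOS2::OsNAC6. Over all transcripts 3.06% were called in that direction and 3.45% in the other. WRKY factors, many of them active in defence, had 12 of 78 transcripts (15.4%) higher in GOS2::OsNAC6 and 2 higher in RCc3::OsNAC6, with a median of -0.46. The WRKY 45-like Os05t0322900-01 had 19.5 CPM in RCc3::OsNAC6, 80.2 in GOS2::OsNAC6 and 142 in NT (Nipponbare), a log2 ratio of -1.99 ± 0.10. WRKY 76 (Os09t0417600-02) had 4.90, 18.7 and 82.0, a ratio of -1.74 ± 0.18, and for both genes several isoforms are listed. Among NAC factors, the family of OsNAC6, 10 of 56 transcripts (17.9%) were higher in GOS2::OsNAC6 and 2 in RCc3::OsNAC6, with a median of -0.34. The NAC factor Os08t0535800-02 had 32.4 CPM in RCc3::OsNAC6 and between 86.4 and 103 in the other 4 libraries, a ratio of -1.64 ± 0.08. Other families had fewer calls. AP2/ERF factors had 4 of 71 transcripts (5.63%) higher in RCc3::OsNAC6 and 5 (7.04%) higher in GOS2::OsNAC6. The 4 include Os01t0899200-01, which is annotated only as similar to a dehydration-responsive family protein. A first wording of that list held 207 transcripts, with 2 (0.966%) higher in RCc3::OsNAC6 and 10 (4.83%) higher in GOS2::OsNAC6. MYB factors had 3 of 111 higher in RCc3::OsNAC6 and 5 higher in GOS2::OsNAC6, bHLH factors had 3 of 100 and 8, and bZIP factors had 0 of 47 and 1. An abundant AP2/EREBP factor annotated with starch biosynthesis (Os05t0121600-01) had 349 CPM in RCc3::OsNAC6, 1094 in GOS2::OsNAC6 and 789 in NT (Nipponbare), a ratio of -1.64 ± 0.02.

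Jasmonate genes were called in 1 direction. Of 53 transcripts of 39 loci for jasmonate synthesis and TIFY repressors, 15 (28.3%) were higher in GOS2::OsNAC6 and 0 were higher in RCc3::OsNAC6. Among all transcripts the shares were 3.06% and 3.45%, and the list median was -0.23. The TIFY protein Os09t0401300-01 had 63.7 CPM in RCc3::OsNAC6 and between 162 and 197 in the other 4 libraries, a log2 ratio of -1.37 ± 0.06. A 12-oxophytodienoic acid reductase (Os06t0215900-02), an enzyme of the jasmonate pathway, differed in profile. It had 15.3 CPM in RCc3::OsNAC6 and 51.3 in GOS2::OsNAC6, a ratio of -1.68 ± 0.11, but 1.56 in NT (Nipponbare), so both transgenic libraries stood above it.

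Enzymes of secondary metabolism and detoxification were also weighted towards GOS2::OsNAC6, the direction in which 3.06% of all transcripts were called, beside 3.45% in the other. UDP-glycosyltransferases, which attach sugars to small molecules, had 15 of 93 transcripts (16.1%) higher in GOS2::OsNAC6 and 0 higher in RCc3::OsNAC6, and glutathione S-transferases had 5 of 49 and 0. Cytochrome P450s were called in both directions, 23 of 164 (14.0%) higher in GOS2::OsNAC6 and 10 (6.10%) higher in RCc3::OsNAC6. The elicitor-inducible P450-like Os09t0441400-01 had 89.9 CPM in RCc3::OsNAC6, 412 in GOS2::OsNAC6 and 1002 in NT (Nipponbare), a log2 ratio of -2.18 ± 0.05. A cinnamate 4-hydroxylase-like P450 (Os02t0467600-01), of the phenylpropanoid pathway, stood at the other end with 20.6, 2.52 and 3.09 CPM and a ratio of 2.62 ± 0.21.

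Heat shock genes were split. Over 155 transcripts 6 were higher in GOS2::OsNAC6 and 4 in RCc3::OsNAC6, near the shares over all transcripts, and the median of 0.09 was close to the overall one. Single members differed strongly. Heat shock protein 101 (Os05t0519700-01), a chaperone that dissolves protein aggregates, had 2.75 CPM in RCc3::OsNAC6, 19.9 in GOS2::OsNAC6 and 23.4 in NT (Nipponbare), a log2 ratio of -2.48 ± 0.20. A transcript similar to heat shock transcription factor 29 (Os02t0232000-01) had 13.9, 120 and 111, a ratio of -3.02 ± 0.11.

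**Figure D4:**
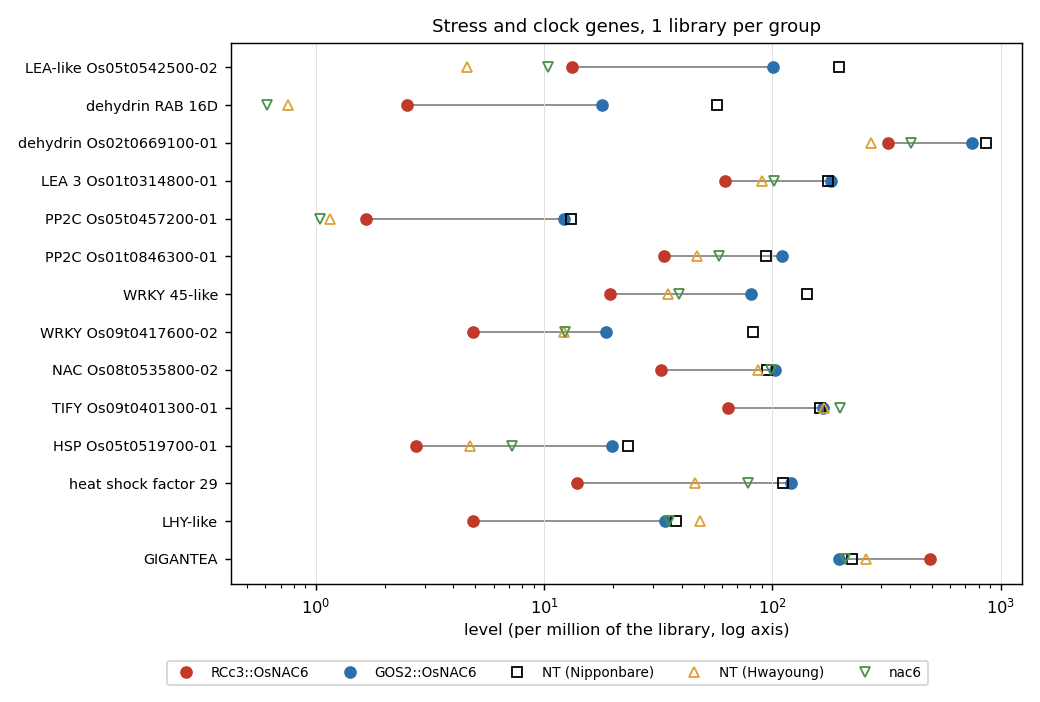
Levels in CPM (log axis) of 14 water-stress, defence, heat shock and clock transcripts in the 5 libraries. For 13 of the 14 RCc3::OsNAC6 (red) lies to the left of GOS2::OsNAC6 (blue) and of NT (Nipponbare). GIGANTEA is reversed, with 490 CPM in RCc3::OsNAC6 and 195 in GOS2::OsNAC6.

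Nutrient transport beyond iron was mixed. Phosphate starvation genes had 4 of 42 transcripts higher in GOS2::OsNAC6 and 1 in RCc3::OsNAC6, with a median of -0.34, and 35 of the 42 lay below the overall median. Aquaporins, the water channels, had a median of -0.40 with 1 of 21 called. That was a NIP III aquaporin annotated with silicon influx (Os06t0228200-01), at 48.7 CPM in RCc3::OsNAC6 and 132 in GOS2::OsNAC6, a log2 ratio of -1.42 ± 0.07. An asparagine synthetase-like transcript (Os03t0291500-01), for an enzyme of nitrogen storage, had 175 CPM in RCc3::OsNAC6, 453 in GOS2::OsNAC6 and 416 in NT (Nipponbare), a ratio of -1.37 ± 0.04. Among 73 zinc transporter and metal handling transcripts, 8 (11.0%) were higher in GOS2::OsNAC6 and 1 in RCc3::OsNAC6, against 3.06% and 3.45% of all transcripts. Of these, the heavy metal transport and detoxification protein Os04t0244800-01 had 234 CPM in RCc3::OsNAC6 and 614 in GOS2::OsNAC6.

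**Figure D5:**
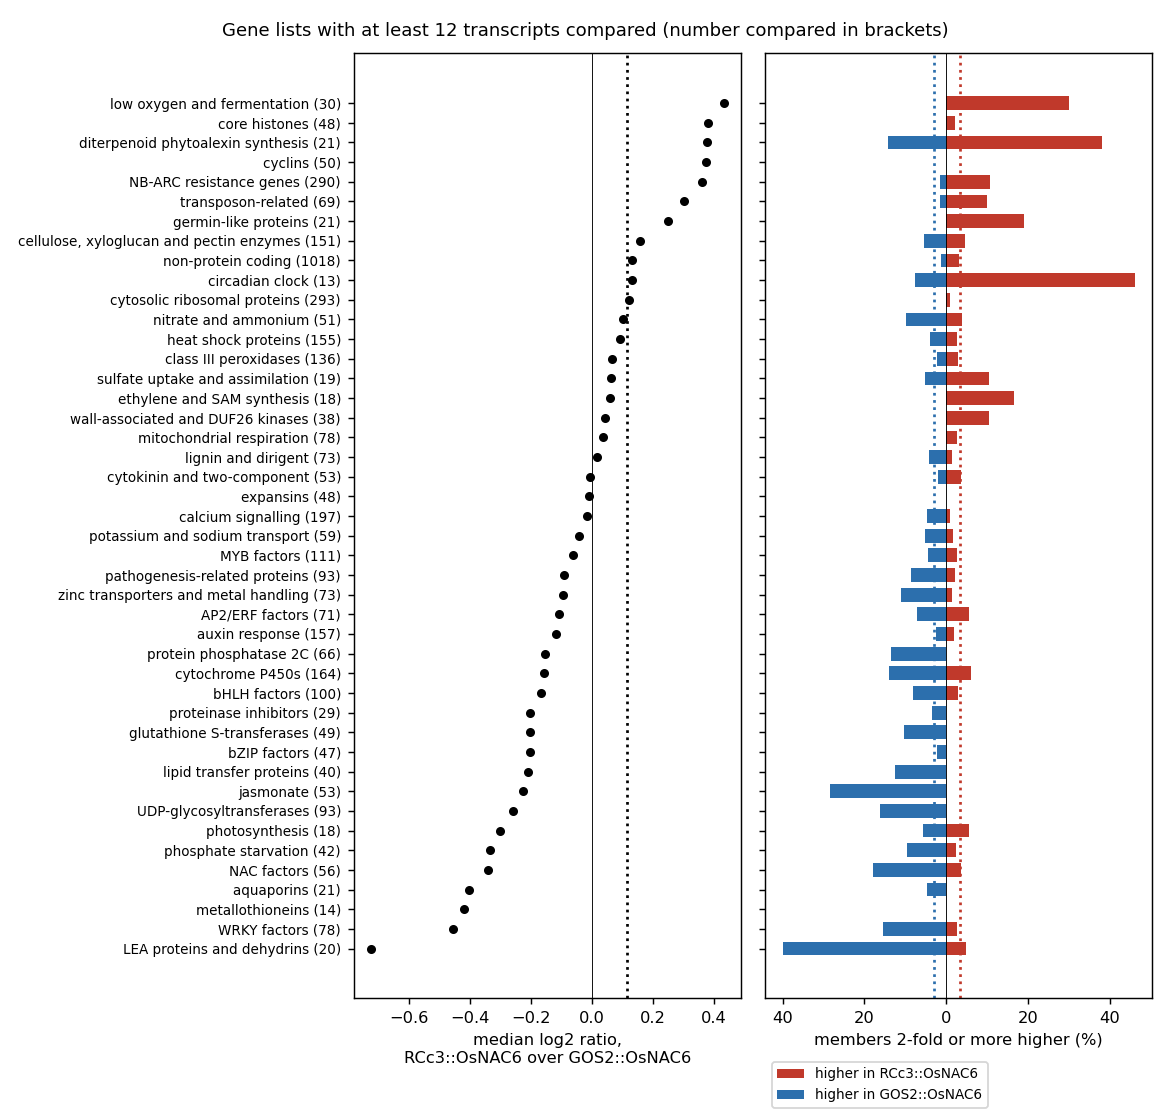
Median log2 ratio (left, dotted line at the 0.11 of all transcripts) and share of members at least 2-fold higher in RCc3::OsNAC6 (right, red) or GOS2::OsNAC6 (right, blue), with dotted lines at the 3.45% and 3.06% of all transcripts, for the gene lists with at least 12 transcripts compared. LEA proteins and dehydrins lie lowest with a median of -0.72, and low oxygen and fermentation lies highest with 0.43.

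Other large lists had few calls. Cytosolic ribosomal proteins had 3 of 293 transcripts (1.02%) higher in RCc3::OsNAC6 and 0 higher in GOS2::OsNAC6, shares below those of all transcripts, with a median of 0.12. Class III peroxidases, which act on cell walls and reactive oxygen, had 4 of 136 and 3, and expansins, which loosen walls, had 0 of 48 in either direction. Of 11 loci listed by the study as targets of OsNAC6, partly on these same libraries, 0 were called in either direction and the median was 0.26. These 11 leave out OsNAS1 and OsNAS2, which the study also lists, and with both the 13 loci had a median of -0.05, below that of all transcripts. The largest ratio among these was that of a sulfotransferase family transcript (Os04t0526300-00), with 7.21 CPM in RCc3::OsNAC6 and 3.53 in GOS2::OsNAC6 and a log2 ratio of 0.86 ± 0.22. Of the called transcripts, 13 that were higher in RCc3::OsNAC6 had at most 3 reads in GOS2::OsNAC6, and 7 that were higher in GOS2::OsNAC6 had at most 3 reads in RCc3::OsNAC6, and none of these is named here.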

How the data were processed

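Root RNA of 5 groups, 1 strand-specific library each, was sequenced. The deposited signal is the mean count per transcript that the authors normalised by DESeq size factors, in 3 tables of pairwise comparisons. The submitters' processing notes name the build IRGSP 1.0, and the aligner and counting rule are not given in the sources used here. The tables also hold the authors' fold changes and p-values, which were not used. Tables name the samples by numbers, which were matched to the numbered sample descriptions. Each deposited mean was split into whole reads of 2 count columns, and 31 to 51 values per library had several possible splits. Whether these columns are mates, lanes or replicates is not stated. They were counted here as 1 library, since 1 sample is listed per group.

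Each library was scaled to a sum of 1000000 (CPM), with a pseudocount of 1 and a minimum mean of 1 CPM (pandas 2.3.3, numpy 2.4.6). The counting error doubles the Poisson variance, because both mates of a pair may have been counted. The comparison, the lists and their members were chosen with earlier results of these data known. Lists of genes came from words in the function text of the tables. Of 47 word rules, 13 were reworded after their matches had been read, which altered the members of 10. Named genes were OsNAC6, the source genes of both promoters, a reference gene, the 12 loci with the largest ratio in each direction at a mean of 10 CPM or more, the 8 most abundant called in each direction, up to 4 members of each list by size of ratio, and every iron and nicotianamine locus. Further low-oxygen, DUF1637, diterpenoid, WRKY and NAC members were chosen after their values were seen. Chromosomes were read from the identifiers. Alternatives were another scaling, the ratio through NT (Nipponbare), other pseudocounts, filters and thresholds, sums per locus and each count column alone.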

Additional observations from a re-analysis of the deposited data

How the results depend on the processing

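The number of transcripts at least 2-fold higher in RCc3::OsNAC6 was 1083, and it moved to 2032 with a pseudocount of 0.1 CPM, 284 with a pseudocount of 5, 422 with a minimum mean of 10 CPM and 72 at a threshold of 4-fold. The number at least 2-fold higher in GOS2::OsNAC6 was 961, and it moved to 437 with a pseudocount of 5, 555 with a minimum mean of 10 and 78 at 4-fold. Under the median-of-ratios scaling the counts were 747 and 1306, and with the ratio taken through NT (Nipponbare) they were 755 and 1332. Of the named transcripts, 199 were called, and 189 of these stayed past 2-fold under the median-of-ratios scaling and 136 with a pseudocount of 5. None of them changed direction under the alternatives tried. Of the 47 word lists, 10 had a median that changed sign under the median-of-ratios scaling, among them heat shock proteins, peroxidases and ethylene synthesis, and 1, ribosomal proteins, changed its side of the median of all transcripts. No paired analysis was possible because each group has 1 library and no test was made. With 1 library per group, differences between plants of a group were not measured, and neither another line of each construct nor a second harvest was analysed here.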
